A study of Homo sapiens with 23 samples.

Results

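The genes described here are 10 members of the ERBB signalling system. They comprise the receptors EGFR, ERBB2, ERBB3 and ERBB4, the ligands TGFA, AREG, EREG, HBEGF and NRG1, and ERRFI1, an intracellular inhibitor of EGFR. A chromatin loop was assigned to a member when either of its 5 kb bins overlapped the gene body (GRCh38) widened by 10 kb on each side. By this rule 7 of the 7075 listed loops of the library labelled T0 and 10 of the 9591 of the library labelled T30 belonged to a member, and the members are 10 of 20037 protein-coding genes counted the same way.

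ERBB receptors are tyrosine kinases of the cell surface that pair up when a ligand of the epidermal growth factor family binds. The paired receptors phosphorylate each other and recruit adaptors that feed the RAS to MAP kinase and the PI3 kinase pathways. In the mammary gland the system drives duct growth and alveolar development, and its receptors and ligands are known to respond to steroid hormones in breast cancer cells. Phosphatases, ubiquitin ligases and inhibitors such as ERRFI1 limit the signal.

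The loops came from HiChIP, in which neighbouring DNA ends are ligated inside fixed nuclei and the ligated pieces are pulled down with an antibody. The titles name PR, taken here as the progesterone receptor and as the target of the antibody. Both libraries were made from T47D, an established human breast cancer line of luminal type that expresses PR. Per the growth and treatment protocols the cells were kept without phenol red, in charcoal-stripped serum and then without serum, before any hormone was added. T0 is read as the time before hormone, and the T30 title joins PR to what is read here as R5020, a synthetic progestin. The labels give neither the unit of the 30 nor the dose for these libraries. There was 1 library per condition, so differences between T0 and T30 were measured without replicates, and the 95% intervals hold for counting error alone. The lists held 127457 contacts (read pairs joining 2 bins) in T0 and 135538 in T30, and the sequencing depth of the libraries is unknown. The lists hold contacts and no expression, so the markers of the line could not be looked at.

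The promoters of EGFR and HBEGF are shown first, because they were the members whose annotated start lay inside a bin with a listed loop, EGFR in T30 and HBEGF in both libraries. Each runs 5′ to 3′ on the gene's strand, from 250 bases before the start to 50 after it, as given by RefSeq on GRCh38.p14. Capitals mark GC boxes (GGGCGG on either strand, the element bound by Sp1), a motif added after the data were seen. EGFR lies on the plus strand at chr7:55018767-55019066 and HBEGF on the minus strand at chr5:140346554-140346853.
EGFR: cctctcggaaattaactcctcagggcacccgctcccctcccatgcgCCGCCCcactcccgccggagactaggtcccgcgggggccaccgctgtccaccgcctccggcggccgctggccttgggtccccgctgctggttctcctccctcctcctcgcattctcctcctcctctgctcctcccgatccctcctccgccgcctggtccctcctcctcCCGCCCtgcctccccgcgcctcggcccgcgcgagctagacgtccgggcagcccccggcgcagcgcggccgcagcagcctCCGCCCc
HBEGF: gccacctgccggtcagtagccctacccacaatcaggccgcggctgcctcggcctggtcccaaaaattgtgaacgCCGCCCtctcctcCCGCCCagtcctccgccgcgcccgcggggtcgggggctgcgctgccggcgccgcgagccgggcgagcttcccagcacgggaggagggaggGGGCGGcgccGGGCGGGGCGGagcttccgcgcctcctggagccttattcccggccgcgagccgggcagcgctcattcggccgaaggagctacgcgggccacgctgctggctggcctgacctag

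The EGFR promoter held 3 GC boxes in 300 bases at a GC content of 75.3%, and that of HBEGF held 5 at 75%. Promoters of members without a loop at the start held them too: 4 at the TGFA start at 70553826, where the GC content was also 75.3%, and 1 each at ERBB4, AREG and ERRFI1. A GC box was present in 45.0% of all 35116 promoters in the table. The hormone response element bound by PR, searched as GNACA and TGTNC with 3 bases between them, was found in neither and in 0.390% of all promoters. Its 6-base core TGTTCT, searched on both strands, was found in neither as well and in 14.8% of all promoters. The full element as searched stops short of the last base of the core, so a match to it need not hold the core. Promoters with both were not counted. Among the 8 members in the table, which lacks ERBB3 and NRG1, the core was found 1 time each at the ERBB2 and ERBB4 starts, at the inner EGFR start (55109839) and at 1 of the 2 TGFA starts. None of those 4 starts lay in a bin with a loop.

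In T0 3 of the 10 members had a loop, against 27.2% of all protein-coding genes. In T30 it was 5 of them, against 32.1%. ERBB2, ERBB3 and HBEGF had loops in both libraries, which was true of 17.9% of all genes. EGFR and ERRFI1 had loops in T30 only as listed, a pattern seen in 14.2% of genes. ERBB4, TGFA, AREG, EREG and NRG1 had none in either list. The median number of loops per member was 0 in T0 and 0.500 in T30, against 0 and 0 over all genes. By partners, the distinct bins joined to a gene, 2 members had more in T30, 1 had fewer and 7 were equal, where 21.3%, 15.0% and 63.7% of all genes were so. A loop with both ends in the widened gene adds both of its bins as partners, so partners can outnumber loops. The members' loops numbered 1.43 in T30 per loop in T0 (95% interval 0.491 to 4.42). That interval includes the 1.36 of all listed loops and the 1.06 (0.903 to 1.24) of loops within 2.5 Mb of the members. No loop joined 2 members.

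**Figure D1:**
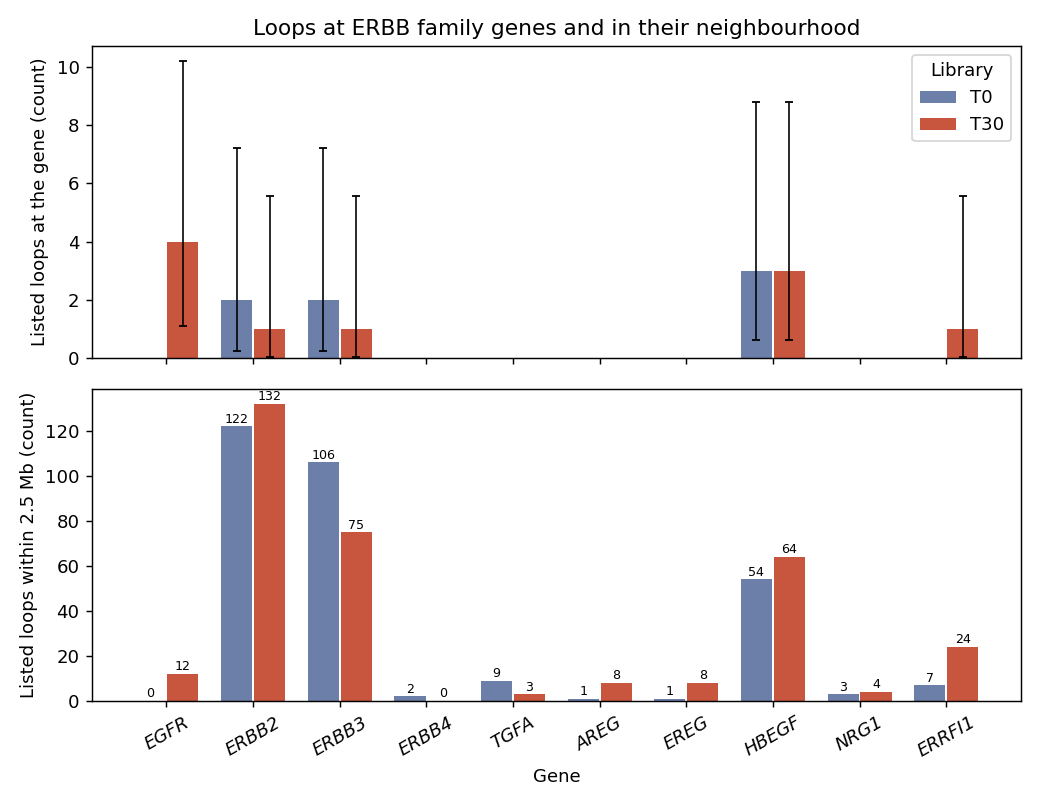
The upper panel gives the number of listed loops at each gene widened by 10 kb, with exact 95% Poisson intervals where it is above 0, and the lower panel the number of listed loops with an end within 2.5 Mb, both in T0 (blue) and T30 (red). EGFR had 0 loops in T0 and 4 in T30 beside 0 and 12 nearby, and ERBB2 had 2 and 1 beside 122 and 132.

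EGFR, the receptor for EGF, TGFA, AREG, EREG and HBEGF, had no loop in T0 and 4 in T30, with 53 contacts in all (chr7:55019017-55211628, 192612 bp, plus strand). At q under 0.01, or with lists of equal length, EGFR had 0 loops in T0 and 2 in T30. These settings only shorten the lists, so they could not add a T0 loop. At least 4 loops were listed at 4.81% of all genes in T0 and at 6.37% in T30. These shares are over genes of all lengths and were not adjusted for the length of EGFR. Of the 4, 3 met in the bin chr7:55015001-55020000, which holds the annotated start. The first of these had 19 contacts (95% interval 11.4 to 29.7) and joined the start to the bin at 55045001, inside the gene with its centre 28.5 kb downstream. The second had 14 contacts (7.65 to 23.5) and led upstream, to the bin at 54980001 with its centre at -36.5 kb from the start. These loops spanned 30 and 35 kb, and over the whole lists loops from 20 to under 50 kb numbered 360 in T0 and 3024 in T30. The last of the 3 had 10 contacts (4.80 to 18.4) and led to 55250001. That partner bin lies beyond the far end of EGFR and overlaps ELDR, a long non-coding RNA gene downstream of EGFR. The fourth loop, also of 10 contacts, began in the next bin at 55020001 and reached 54965001 upstream. The start of EGFR was thus joined in 3 directions, into its body, upstream and past its end, and no upstream or downstream partner bin overlapped a protein-coding gene.

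The neighbourhood of EGFR differed between the lists as a whole. Within 2.5 Mb of the gene T0 listed 0 loops and T30 listed 12, of which the 4 at EGFR were 33.3% (exact binomial 95% interval 9.92 to 65.1). The nearest T0 bin with a loop lay 3654 kb away. No loop within that distance was found for 11.0% of all genes in T0 and for 6.52% in T30. Of the 2207 genes with such an empty neighbourhood in T0, 168, or 7.61%, had a loop at the gene in T30, EGFR among them. A further 3 of the 12 T30 loops enclosed EGFR, with 8, 13 and 13 contacts over 470 to 515 kb. Their upstream ends lay between 54760001 and 54785001, nearest to SEC61G, a subunit gene of the protein translocation channel, and 2 of their downstream ends fell in the bin at 55255001. That bin adjoins the partner bin of the EGFR start at 55250001. The other 5 lay between 55285001 and 55880001, on the side of LANCL2, VOPP1 and SEPTIN14. Loops at EGFR and loops over its region thus differed together between the lists, and the part of the region in the result was not tested.

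ERBB2, the receptor without a known ligand that serves as preferred partner of the others, had 2 loops in T0 and 1 in T30 (chr17:39688094-39728658, 40565 bp, plus strand). In T0 both loops had 16 contacts (95% interval 9.15 to 26.0) and started from the upstream bin at 39620001, whose centre lies at -65.6 kb from the ERBB2 start. One ended inside ERBB2 at 39710001 and the other just past the gene at 39730001, in MIEN1. The T30 loop had 14 contacts (7.65 to 23.5), joined 39635001 to 39690001 and spanned 55 kb. Its upstream bin overlaps PPP1R1B, a phosphatase inhibitor gene, and STARD3, a cholesterol transfer gene, and its other bin lies in ERBB2 just downstream of the one that holds the start. The ERBB2 loops of the lists therefore shared neither bin, and none was matched between the libraries. At q under 0.01, and with both lists held to the same largest p-value, ERBB2 had 0 loops in T0 and 1 in T30, so the order of the libraries turned.

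The upstream bin of the T0 loops had 4 partners in T0. Besides ERBB2 and MIEN1 it joined CDK12, a transcription kinase gene, at 39550001 with 22 contacts, and the bin at 39750001 beside IKZF3 with 27. The latter loop encloses ERBB2 and was listed again in T30 with 13 contacts. In all 2 loops enclosed ERBB2 in T0, with 46 contacts, and 5 in T30, with 64. One T30 loop of 13 contacts reached GRB7, the adaptor gene next to ERBB2, from the same bin at 39620001. With the gene widened by 25 kb, which takes in GRB7, ERBB2 had 5 loops in T0 and 6 in T30. ERBB2 lies in a region rich in loops: 122 were listed within 2.5 Mb in T0 and 132 in T30, and 98.2% and 97.2% of genes had as many or fewer. Of these loops 1.64% (0.199 to 5.80) and 0.758% (0.0192 to 4.15) ended at ERBB2, intervals that overlap.

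ERBB3, which binds neuregulins and has a weakly active kinase, had 2 loops in T0 and 1 in T30 (chr12:56080108-56103505, 23398 bp). The bin at 56085001 inside the gene was an end of all 3. In T0 it was joined to 56100001 by 40 contacts (95% interval 28.6 to 54.5), the most of any member loop. That partner bin overlaps both the upper end of ERBB3 and PA2G4, which encodes an ERBB3-binding protein. This loop spans 15 kb, and since the shortest span in the T30 list is 20 kb, no such loop could be seen there. The other loop joined 56045001, beside the ribosomal protein gene RPS26, to the same ERBB3 bin and had identical bins in both libraries, with 25 contacts in T0 (16.2 to 36.9) and 15 in T30 (8.40 to 24.7). With spans of at least 20 kb, ERBB3 thus had 1 loop in each library. Loops within 2.5 Mb numbered 106 in T0 and 75 in T30.

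ERBB4, the other neuregulin receptor, had no listed loop although its gene is 1163086 bp long. T0 listed 2 loops within 2.5 Mb, both of 8 contacts and both ending at IKZF2, the nearest 236 kb from ERBB4. T30 listed none, and its nearest bin lay 3976 kb away. Among the receptors, ERBB2 and ERBB3 had many loops nearby and, in the lists as deposited, loops of their own in both libraries, while EGFR in T0 and ERBB4 in both had few or none nearby.

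**Figure D2:**
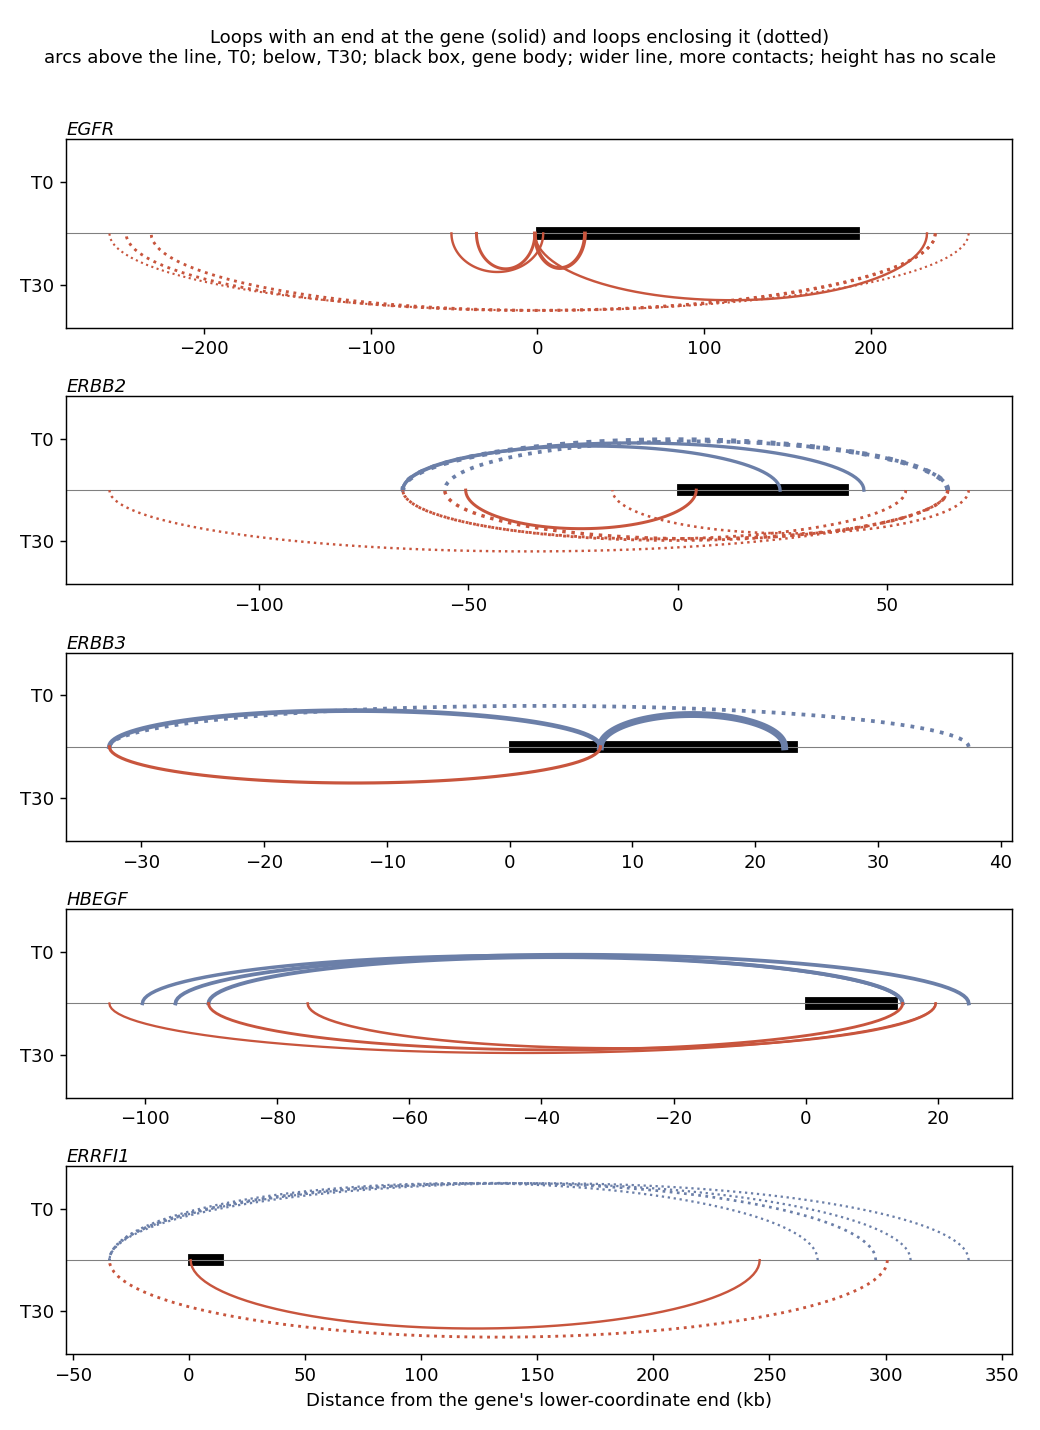
Each row shows 1 gene (black box) with the loops that end at it (solid arcs) and those that enclose it (dotted arcs), T0 above the line and T30 below, against the distance in kb from the gene's lower-coordinate end. Wider lines have more contacts, from 8 to 40, and the height carries no value. At ERBB3 and HBEGF 1 solid arc has the same ends in both libraries.

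HBEGF, the heparin-binding ligand of EGFR and ERBB4, was the member ligand with loops, 3 in each library (chr5:140332843-140346603, 13761 bp, minus strand). At least 3 loops were found at 8.16% of all genes in T0 and 9.93% in T30. All 6 led in the same direction, past the end of the gene to a stretch 89.1 to 119 kb downstream of its start. In T0 the 3 loops ended in CYSTM1, a gene for a small cysteine-rich membrane protein, with 20, 19 and 17 contacts. Of these, 2 came from the bin at 140345001 that holds the HBEGF start, and 1 from 140355001 in the upstream flank. In T30 the loops had 13, 11 and 9 contacts. The first joined the start bin to CYSTM1 at 140240001, the second joined the flank bin at 140350001 to PFDN1, a prefoldin subunit gene, and the third joined the same flank bin to CYSTM1 at 140225001.

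One HBEGF loop, from 140240001 to 140345001, had identical bins in both lists, with 20 contacts (95% interval 12.2 to 30.9) in T0 and 13 (6.92 to 22.2) in T30. No other HBEGF loop was matched between the lists. Where the gene was not widened, HBEGF had 2 loops in T0 and 1 in T30. Within 2.5 Mb there were 54 loops in T0 and 64 in T30, and HBEGF held 5.56% (1.16 to 15.4) and 4.69% (0.977 to 13.1) of them.

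The other ligands had no loop. TGFA, which binds EGFR, was enclosed in T0 by 3 loops of 9, 10 and 12 contacts, all from the bin at 70340001 to bins between 70610001 and 70640001, near ADD2. In T30 none enclosed it and the nearest loop lay 511 kb away. The nearest T0 bin was 56.2 kb from the gene, outside the widened body. AREG, the EGFR ligand required for mammary duct growth, and EREG, which binds EGFR and ERBB4, lie side by side on chromosome 4 and share their neighbourhood. It held 1 loop in T0 and 8 in T30, the nearest of them 1540 kb from AREG, and 7 of the 8 lay within SHROOM3, an actin regulator gene. NRG1, the ligand of ERBB3 and ERBB4, spans 1134802 bp and had 3 loops within 2.5 Mb in T0 and 4 in T30, the nearest at 1884 and 771 kb. A list of loops past a threshold does not show that contacts were absent at these genes.

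ERRFI1 encodes a protein that binds the EGFR kinase domain and blocks it (chr1:8011727-8026309, 14583 bp, minus strand). It had no loop in T0 and 1 in T30, of 10 contacts (95% interval 4.80 to 18.4). That loop did not start from the promoter: it joined the bin at 8010001, which holds the far end of ERRFI1, to the upstream bin at 8255001, whose centre lies at -231 kb from the start. The partner bin overlaps the non-coding gene LINC03154. It had 5 partners in T30, the other 4 being bins between 8060001 and 8190001 with 9, 13, 14 and 14 contacts and no protein-coding gene. The loop is thus 1 of a fan of 5 from that bin.

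In T0 the same region was crossed by other loops. The bin at 7975001 in PARK7, a gene for an oxidative stress protein, was joined across ERRFI1 to 4 bins between 8280001 and 8345001, with 9, 9, 9 and 12 contacts. In T30 the PARK7 bin had 1 such loop, of 13 contacts, to 8310001. Loops within 2.5 Mb numbered 7 in T0 and 24 in T30. So at ERRFI1 the lists hold 4 enclosing loops and none at the gene in T0, and 1 of each in T30.

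How the members' loops compared with others of equal span was looked at next, because the lists differ in how many contacts a loop needed. All 10 member loops of T30 had contacts that fewer than 25% of the T0 loops of the same span matched or lay under, and 3 had fewer contacts than every T0 loop of that span. Over the whole T30 list 74.2% and 17.6% of loops were so placed. The EGFR loop of 35 kb had 14 contacts where the 58 T0 loops of that span had at least 15 and a median of 24. The EGFR loop of 55 kb had 10 where the lowest of 101 T0 loops had 11. The third was the HBEGF loop of 125 kb, with 9 contacts against a lowest T0 value of 10. For the EGFR loops of 30 and 235 kb and the ERRFI1 loop, 15.4%, 22.4% and 19.7% of T0 loops of the same span had as few contacts. Whether EGFR and ERRFI1 had contacts in T0 that were too few to be listed was not tested.

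In the opposite direction, the 6 member loops of T0 whose span occurs in T30 all had more contacts than the median T30 loop of that span, as had 79.3% of all T0 loops so compared, and 88.7% to 97.7% of those T30 loops had as few or fewer. Within the T0 list, loops with fewer contacts than a member loop were 27.4% to 69.2% of those of the same span. Within the T30 list they were 0% to 68.4%, lowest for the HBEGF loop of 125 kb (0%) and the EGFR loop of 55 kb (1.33%). The ERBB3 loop of 40 kb, for example, had 25 contacts in T0, where loops of that span had a median of 23, and 15 in T30, where the median was 15.

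**Figure D3:**
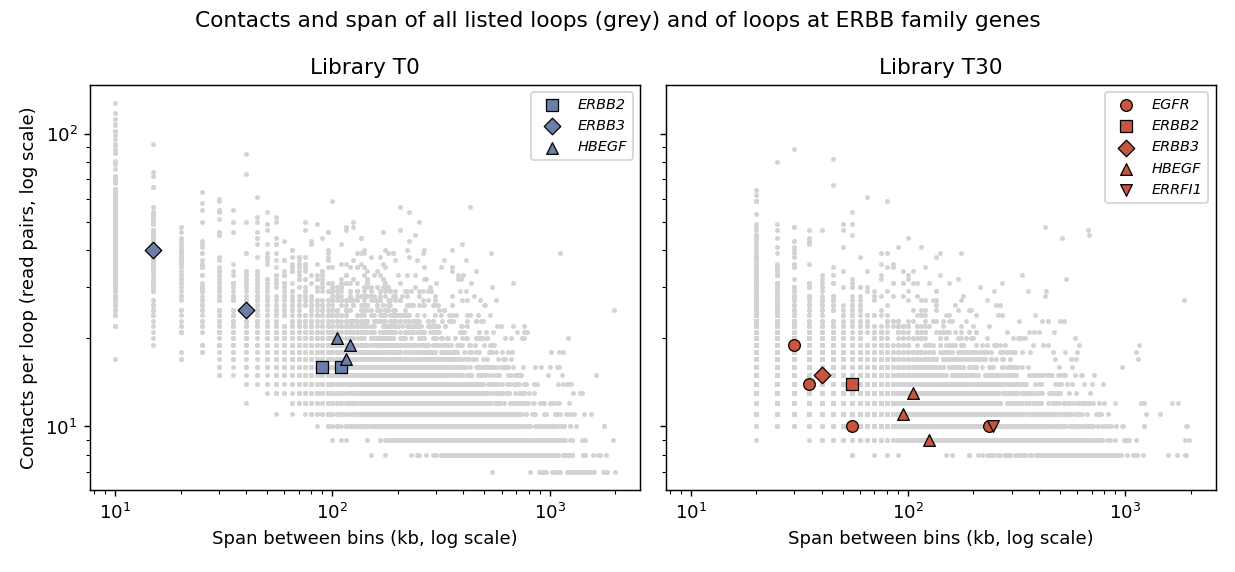
Contacts per loop against the span between its bins, both on log scales, for all listed loops (grey) and for loops at ERBB family genes (coloured, by gene), in T0 (left) and T30 (right). Short loops in T0 start at higher contacts than in T30, and the EGFR loop of 35 kb and 14 contacts in T30 lies under the T0 values at that span.

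Contacts of loops found in both lists were compared over the whole lists. A total of 1389 loops were matched 1 to 1 by overlapping ranges at both ends, and 2 of them were member loops. The median T30 to T0 ratio of contacts was 0.667. Relative to it, the ERBB3 loop had a log2 ratio of -0.15 (95% interval -1.18 to 0.83) and the HBEGF loop one of -0.04 (-1.17 to 1.04). Neither passed a two-sided exact binomial test of each matched loop, which compares 2 libraries and not 2 conditions (unadjusted p = 0.872 and 1, Benjamini-Hochberg adjusted p = 1 for both). Over all matched loops 22 (1.58%) were higher and 1 (0.0720%) lower at an adjusted p under 0.05, and 76 and 26 at an unadjusted p under 0.05. This split depends on the scaling: without it, 6 were higher and 41 lower at an adjusted p under 0.05, and neither member loop passed (adjusted p between 0.420 and 0.577). The intervals of the 2 member loops are not adjusted for the 1389 loops tested and are not limits of detection. Differences somewhat beyond them could also have gone uncalled.

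Other genes of the pathway were taken from 3 lists of 42 genes in all. T0 listed a loop at 20 of these and T30 at 20, with 16 shared, beside the 27.2%, 32.1% and 17.9% of all genes. Partners were more numerous in T30 for 10, fewer for 11 and equal for 21, where 21.3%, 15.0% and 63.7% of all genes were so. These shares of all genes are the background for each list below. Genes with loops can differ either way more often than genes without any. The counts of these pathway genes were not repeated under other settings. Over the whole lists, loops under 20 kb numbered 574 in T0 and 0 in T30. Those from 20 to under 50 kb numbered 360 and 3024. The list of further ligands and of the proteases that release them (8 genes, among them EGF, BTC, ADAM10 and ADAM17) had a loop at 1 gene in each library. This was NRG2, a neuregulin gene, with 2 and 3 partners, beside 48 and 56 loops within 2.5 Mb.

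Loops touched 10 of 18 adaptors and direct effectors in T0, and 11 of them in T30, with more partners in T30 for 4, fewer for 4 and equal numbers for 10. PIK3R1, the regulatory subunit of PI3 kinase, had 7 partners in T0 and 1 in T30, with 10 and 9 loops within 2.5 Mb. GRB2, the adaptor that links receptors to RAS, had 10 and 5 partners from 10 and 4 loops, beside 98 and 115 loops within 2.5 Mb. PIK3CA, the catalytic subunit of PI3 kinase, had 1 and 4 partners, the kinase gene SRC had 1 and 6, and PLCG1, a phospholipase gene, had 4 and 1. Nearby loops numbered 61 and 84 for PIK3CA, 69 and 57 for SRC, and 26 and 29 for PLCG1. STAT3, a transcription factor gene, had 3 and 6 partners, a difference of the same size as those of PIK3CA and PLCG1. These came from 3 and 4 loops with 71 and 48 contacts, beside 136 and 159 loops within 2.5 Mb. In the lists as deposited, the subunits of PI3 kinase differed in opposite directions, on 1 to 7 loops per gene and library.

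Loops touched 9 of 16 negative regulators in T0 and 8 in T30 (5 shared), with more partners in T30 for 5, fewer for 7 and equal numbers for 4. PTPRJ, a receptor phosphatase that acts on EGFR, was at 0 loops in T0 and at 14 in T30 (13 partners, 279 contacts), while loops within 2.5 Mb numbered 21 and 34. Unlike EGFR, it thus lay in a region with listed loops in T0. No loop in T0 and at least 1 in T30 was seen at 14.2% of all genes, and at least 4 loops in T30 at 6.37%. PTPRJ (chr11:47980559-48170839) had the largest difference in partners of the 42 pathway genes. Its counts were not repeated under other settings or split by span, and T30 listed many more loops of 20 to under 50 kb than T0. The ubiquitin ligase genes CBL and CBLC, which mark ERBB receptors for breakdown, had 3 and 2 partners in T0 and 1 each in T30. Loops within 2.5 Mb in T0 and T30 numbered 37 and 33 for CBL, and 24 and 22 for CBLC. LRIG1, a membrane inhibitor of ERBB receptors, had 1 and 3 partners from 1 and 2 loops, beside 3 and 4 loops within 2.5 Mb. DUSP6, a phosphatase of the MAP kinase ERK, had 1 and 0 partners, beside 12 and 7 nearby loops. CBLC and DUSP6 are 2 of 9 genes of the list whose partners differed by 1, and were named by alphabetical order. PTPRJ held 13 of the 27 partners of the list in T30, and the list had 17 in T0.

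**Figure D4:**
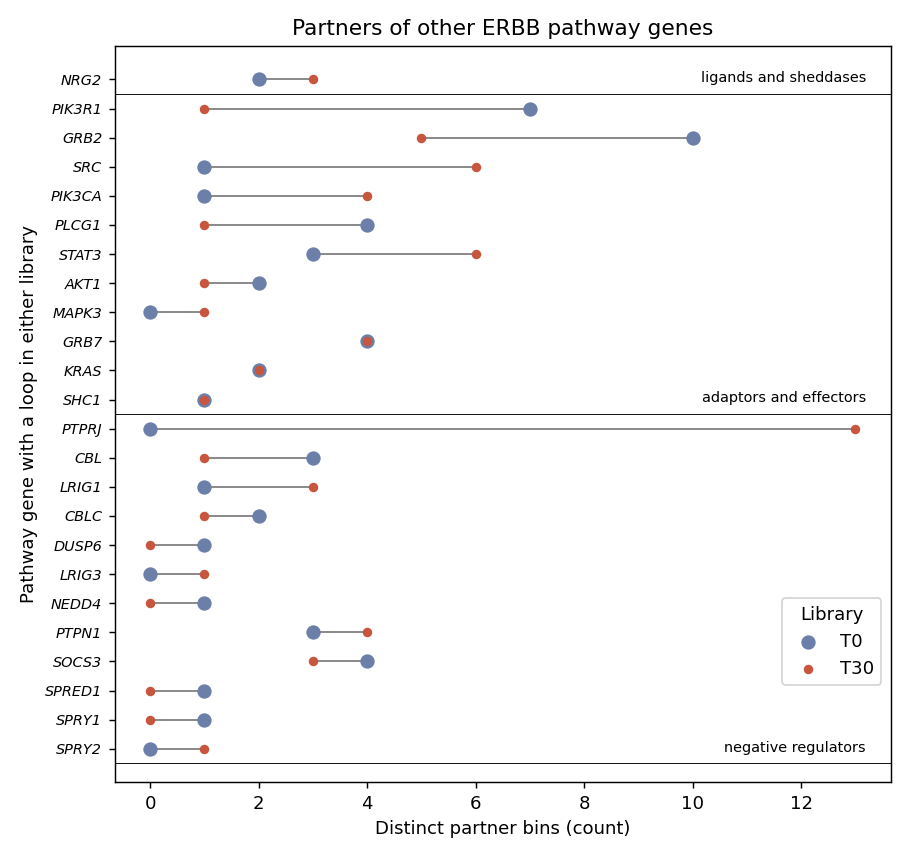
Distinct partner bins in T0 (large blue points) and T30 (small red points) of the 24 genes with a loop in either library out of 42 other pathway genes, by list. PTPRJ went from 0 to 13 partners and PIK3R1 from 7 to 1, and 12 genes differ by 1.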

How the data were processed

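HiChIP loops were analysed from 2 of the 23 samples, T0 and T30, and the other samples were not analysed here. The deposited lists hold loops that passed a q-value of 0.05 after nearby contacts were merged. Their contacts are raw counts of pairs joining bins of 5 kb, per the file headers. Each loop carries the authors' p-value and their q-value, both allowing for bias, per the file headers. A deposited fraction per merged cluster was not used. Bowtie and the builds hg38 and GRCh38 are named in the submitters' processing notes, without role or version. Settings of the loop caller, and whether replicates were pooled, were not given in the sources used here. Positions of the bins and clusters are other deposited columns.

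Gene bodies came from RefSeq (GRCh38.p14, chromosomes 1 to 22, X and Y), and strands and promoters from its promoter table, which held 8 of the 10 members. Loops, partners and contacts were counted for all 20037 protein-coding genes. A loop enclosed a gene when its ends lay on either side of the widened gene. Loops were matched 1 to 1 where their merged ranges shared 1 bp or more at each end, nearest bins first. Intervals are exact Poisson, binomial or ratio intervals at 95%, and reads need not be independent molecules. The ratio test was run on simulated contacts, and the counting per gene on loops placed by hand. Matching by identical bins was checked on T0 loops against themselves. The other steps were not checked in this way. The text names all members, the loops with most contacts and the 5 pathway genes per list with the largest differences in partners, ties being taken in alphabetical order, and STAT3, which is tied with PIK3CA and PLCG1. Members and lists were chosen with earlier results of these data known. Enclosing loops, comparisons at equal span and GC boxes were added after the data were seen. Scripts ran under Python 3.11.15 with scipy 1.17.1, pandas 2.3.3 and numpy 2.4.6, and figures were drawn with matplotlib 3.10.9.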

Additional observations from a re-analysis of the deposited data

How the results depend on the processing

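Counts were repeated with genes not widened or widened by 25 kb, at q under 0.01, with at least 10 contacts, with lists of equal length or cut at the same largest p-value, with spans of at least 20 kb, and with merged cluster ranges as loop ends. Under these settings the number of members with a loop stayed within 1.5 times 3 in T0 and 5 in T30, and the summed change in partners, 4, stayed between 1 (lists of equal length) and 6. Member loops, 7 in T0 and 10 in T30, came to 13 and 16 with genes widened by 25 kb. In T0 they came to 4 at q under 0.01 and at the same largest p-value, where T30 had 7 and 10. With lists of equal length they numbered 7 in each library. When only the bin with the annotated start was used, which leaves out ERBB3 and NRG1 by construction, 1 member with 2 loops was left in T0 and 2 members with 4 loops in T30, and the change in partners was 2. EGFR had 2 to 4 loops in T30 under these settings. Its 0 in T0 was fixed in advance, because T0 listed no loop within 2.5 Mb of it and no setting could add one. ERBB2 in T0 had 0 loops at q under 0.01 and at the same largest p-value. Member loops were 2.30% of the nearby loops in T0 and 3.11% in T30 within 2.5 Mb, and 5.56% and 8.33% within 1 Mb, which holds fewer loops. No member loop was called under other scalings or matches, with adjusted p between 0.420 and 1. No paired analysis was possible because each condition had 1 library. Depth is unknown, and 7 and 10 member loops leave wide intervals.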
